A study of Coturnix japonica with 42 samples.

Results

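The proteasome and ubiquitin conjugation genes described here are those whose array annotation gives a single symbol beginning with PSMA, PSMB, PSMC, PSMD, PSME or UBE2, together with SKP1. The rule found 57 genes among 13009 genes with a single symbol, measured by 100 of 38439 probe sets. Each gene is represented by its brightest probe set over all arrays. The rule itself uses no measured difference, but the set was chosen with earlier results of these data known, and SKP1 was added to it by name. One gene, PSMC3IP, carries a matching symbol but encodes a recombination cofactor and no proteasome subunit. Probe sets annotated with several symbols were not used.

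The RNA came from the mediobasal hypothalamus, a brain region that reads day length, of Japanese quail. The birds were males, 8 weeks old, and had lived for 4 weeks on 6 h light and 18 h dark a day. The birds were sampled over 1 such short day and over the first 2 days on 20 h light and 4 h dark, a change that starts the seasonal growth of the gonads in this species. At each of 21 time points 6 birds were taken and their RNA was combined into 2 pools of 3 birds, each hybridised to its own array. The short day was covered at 2, 6, 10, 14, 18 and 22 h (12 arrays), the first long day at 26 to 46 h with 36, 40 and 44 h added (18 arrays), and the second long day at 50 to 70 h (12 arrays). Times are taken here to count from lights-on of the short day, which the labels do not state. Under this reading the birds of the first long day had met no change of light by 26 and 30 h (hours 2 and 6), and those of the second long day had already had 1 long day. From hour 10 onward the light differed between the regimes at the sampled hours, apart from hour 22, which was dark in both. The groups differ in light regime and in calendar order together, since the short day came first for every bird, and no group was kept on short days in parallel with the long days.

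The ubiquitin system marks proteins for destruction. An activating enzyme (E1) passes ubiquitin to a conjugating enzyme (E2, most of the UBE2 genes), and a ligase (E3) brings the loaded E2 to its target. SKP1 is the adaptor of the SCF ligases, in which it joins interchangeable F-box proteins to a cullin. The proteasome that degrades the marked proteins has a 20S core of stacked alpha rings (PSMA) and beta rings (PSMB, which hold the cutting sites), and a 19S cap whose ATPases (PSMC) unfold the substrate while its other subunits (PSMD) bind and remove ubiquitin. PSME proteins are alternative caps. In the brain this system turns over clock proteins and synaptic proteins, among many others.

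The arrays carry chicken probes, so signals depend on how well each probe matches quail RNA. Where probe sets are ordered or grouped by signal below, this is not read as an order of transcript amounts. The deposited 2% trimmed mean per array had a median of 34.2 on the short day, 33.49 on the first and 28.12 on the second long day, and all signals below were scaled to a common trimmed mean of 32.42. The 2 arrays of a time correlated with a median r of 0.895 across probe sets, and least at 62 h, with 0.812. The 3' to 5' ratio of GAPDH, a sign of RNA quality, had medians of 1.196, 1.192 and 1.198 on the 3 days. The same ratio of actin was much higher, with medians of 7.653, 7.716 and 7.878. Of 10 neuropeptide genes on the array that mark the hypothalamus, 9 had a median signal above the floor of 3.509, GNRH1 being the exception, and their summed signal had medians of 4497, 4665 and 4586. Summed signals of tanycyte and ependyma markers (3 of 5 listed genes on the array) had medians of 3949, 4151 and 5299. Those of anterior pituitary markers (6 of 7 on the array) were 638.9, 1078 and 1315, with ranges of 167.2 to 1208 on the short day and 657.6 to 1828 on the second long day. That list includes the thyrotropin subunit genes TSHB and CGA. Of its 6 tested genes, 2 differed between the second long day and the short day (limma adjusted p at most 0.05). The same held for 1 of 3 tanycyte and ependyma genes, 1 of 6 neuron genes, 1 of 3 choroid plexus genes and 0 of 10 neuropeptide genes, against 1.37% of all probe sets tested. It held for none of the tested oligodendrocyte, erythrocyte, or microglia and leukocyte genes. From the short to the second long day, median summed signals went from 17330 to 18220 (neuron), 7219 to 8049 (oligodendrocyte) and 369.8 to 417.1 (microglia and leukocyte). Those of erythrocyte and choroid plexus markers went from 5187 to 4886 and from 224.2 to 213.3. The summed signal of the pituitary list was not read as a measure of pituitary tissue alone. Whether these shifts had a part in the differences below was not tested.

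Signals were above the array's median on all 42 arrays for 43 of the 57 genes, and mean signal ran from 3.3 (PSMC3IP) to 3010 (UBE2N, the E2 that builds non-degradative ubiquitin chains with a variant partner). The mean was at least 500 for 11 genes, between 100 and 500 for 23 and under 100 for 23. At least 1 array lay at the floor for 10 genes, and 10 or more arrays for PSMB5 (29), which encodes a catalytic beta subunit, UBE2U (25), UBE2D2 (14) and PSMC3IP (30). PSMC3IP was the only gene that failed the filter on low signals, which asked for a signal above the array's median on at least 2 arrays, so 56 genes were tested.

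Among the 47 genes with no array at the floor, the ratio of the highest to the lowest time-point mean had a median of 1.477 and was under 1.5 for 24. These ratios take in the spread between arrays as well as time. The ratio was smallest for PSMB4, a structural beta-ring subunit, at 1.15 (648 at 30 h to 745 at 22 h), and largest for the dim probe set of the alpha subunit PSMA5, at 3.521 (11.4 at 34 h to 40.1 at 62 h). For the 34 genes with a mean signal of at least 100 the ratio ran from 1.15 to 2.128, the latter in UBE2QL1, an E2-like gene. The SD of the 2 arrays at a time was 0.189 on the log2 scale for the median gene. The 62 h time point, whose arrays correlated least, held the lowest mean of 10 of the 47 genes and the highest of 5.

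**Figure D1:**
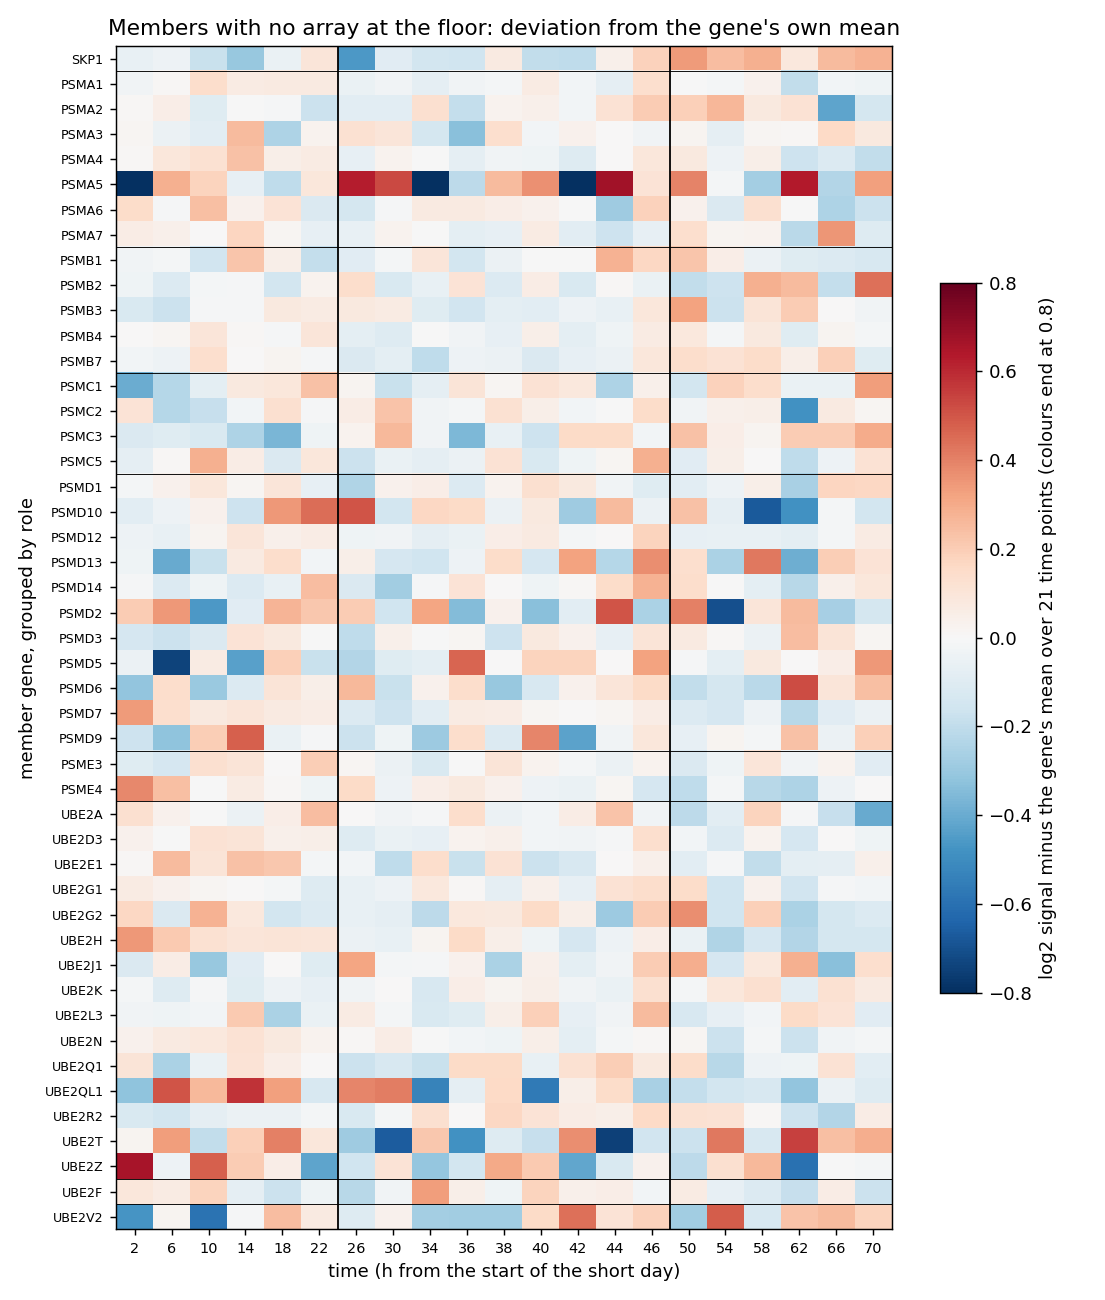
Colour gives the log2 signal of each gene at each time point (mean of 2 arrays) minus that gene's mean over the 21 time points, for the 47 genes with no array at the floor, grouped by role and with vertical lines between days. The colour scale ends at 0.8 in either direction, and the SKP1 row is lowest at 26 h and highest on the second long day while the UBE2H and PSMD7 rows are highest at 2 h.

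No gene of the set passed the test for any difference between time points (limma, Benjamini-Hochberg adjusted p at most 0.05 over 32057 probe sets), against 0.221% of all probe sets tested. At an unadjusted p under 0.05 there were 3 of 56, against 6.95% of all. The smallest adjusted p belonged to SKP1 (0.397), then UBE2H (0.419) and UBE2QL1 (0.64). Each time point rested on 2 arrays, while the second long day and the short day, compared next, had 12 each.

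Between the second long day and the short day, 3 of the 56 genes differed. UBE2H and PSMD7 fell and SKP1 rose, and the largest of these changes was 1.26-fold. The number and its direction depended on scaling, with 20 genes called on the deposited scale and 6 with median centring, all of them lower and SKP1 not among them. The 3 genes are 5.36% of the genes, while 1.37% of all probe sets tested passed in this comparison, 0.97% lower and 0.396% higher. Because SKP1 was added by name, its call is not independent of how the set was chosen. These percentages describe probe sets of every brightness, and calls were more frequent among bright ones. Of 833 probe sets with a mean signal of at least 500, a limit chosen after the values were seen, 10.2% passed, 8.28% lower and 1.92% higher. The 3 called genes are all among the 11 of the set above that limit (27.3%).

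UBE2H encodes an E2 that serves the CTLH ligase complex in mammalian cells, and its probe set read between 1373 and 1729 on the short day, with a median of 1492 over 12 arrays. It read from 1182 to 1551 on the first long day, with a median of 1366 over 18 arrays, and from 979 to 1340 on the second, with a median of 1225 over 12 arrays. Every array of the second long day was below every array of the short day, which held for 0.0374% of all probe sets tested (0.00936% lay wholly above), while the first long day overlapped both. The mean fell from 1513 ± 117 to 1213 ± 98.8 (SD, n = 12 arrays each), a 1.25-fold decrease (95% interval 1.16 to 1.34, limma adjusted p = 0.00035). Averaging this probe set with the dim second one of the gene ended the call and moved the log2 difference from -0.32 to -0.08 (adjusted p = 0.893). UBE2H was lower than at the same hour of the short day at 6 of 6 hours on both long days. Because this is bulk tissue, fewer cells that hold a transcript and less of it per cell cannot be told apart, here and in all that follows.

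The time course of UBE2H began high. Both arrays at 2 h read 1706 and 1729, the highest of the series, and the mean was 1557 at 6 h. From 10 to 22 h it lay between 1442 and 1471. At 26 and 30 h, before the light of the first long day differed if times count from lights-on, it was at 1311 and 1298. The highest value after the transfer came at 36 h, at 1502, and the lowest mean of all at 54 h, at 1142. At 62 h the arrays differed widely, at 1338 and 979, while the remaining time points of the second long day were between 1142 and 1302.

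PSMD7 encodes the 19S subunit that pairs with the deubiquitinating subunit PSMD14 in the lid, and its probe set read between 576 and 776 on the short day, with a median of 619. The first long day spanned 465 to 660, with a median of 581, and the second long day 470 to 592, with a median of 536. The days overlapped, with the upper arrays of the second long day within the lower part of the short day. The mean fell from 635 ± 59.7 to 538 ± 35.9 (SD, n = 12 arrays each), 1.18-fold (95% interval 1.09 to 1.28, limma adjusted p = 0.0197), and it was lower at 6 of 6 hours. Like UBE2H, PSMD7 was highest at 2 h, with arrays at 692 and 776, and had come down to 537 and 519 at 26 and 30 h. Leaving out replicate 2 of 2 h, replicate 1 of 6 h, replicate 2 of 18 h, replicate 1 of 54 h or replicate 2 of 70 h ended the call, with adjusted p from 0.0511 to 0.0615. So did quantile scaling, at -0.16 on the log2 scale against -0.24 (adjusted p = 0.136), the deposited trimmed mean of each array as a covariate (0.232) and a model without a variance trend (0.188).

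SKP1 went the other way. Its probe set read between 1208 and 1706 on the short day, with a median of 1420, between 1025 and 2030 on the first long day, with a median of 1373, and between 1477 and 1993 on the second, with a median of 1779. Only the lower arrays of the second long day overlapped the upper ones of the short day. The mean rose from 1421 ± 178 to 1789 ± 160 (SD, n = 12 arrays each), 1.26-fold (95% interval 1.13 to 1.41, limma adjusted p = 0.0132), and it was higher at 6 of 6 hours. The call depended on scaling and on the variance model: the log2 difference of 0.34 was 0.07 on the deposited scale (adjusted p = 0.734), where the median of all probe sets was -0.185, and 0.20 with median centring (0.317). It was 0.37 with that covariate (0.128) and was not called without a variance trend (0.145).

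The mean of SKP1 was lowest at 26 h, and its highest lay on the second long day. Both arrays at 26 h, 1162 and 1025, were below all short-day arrays, while the mean at 30 h was 1411. On the following hours the pair of arrays often disagreed, with 1228 and 2030 at 38 h, 1079 and 1594 at 40 h, and 1809 and 1311 at 44 h. At 46 h both were high, at 1673 and 1734, but the same hour of the short day, 22 h, had a mean of 1610. The difference between these 2 times was 0.08 on the log2 scale (95% interval -0.30 to 0.46). On the second long day the means lay between 1596, at 62 h, and 1904, at 50 h, the highest of the series.

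**Figure D2:**
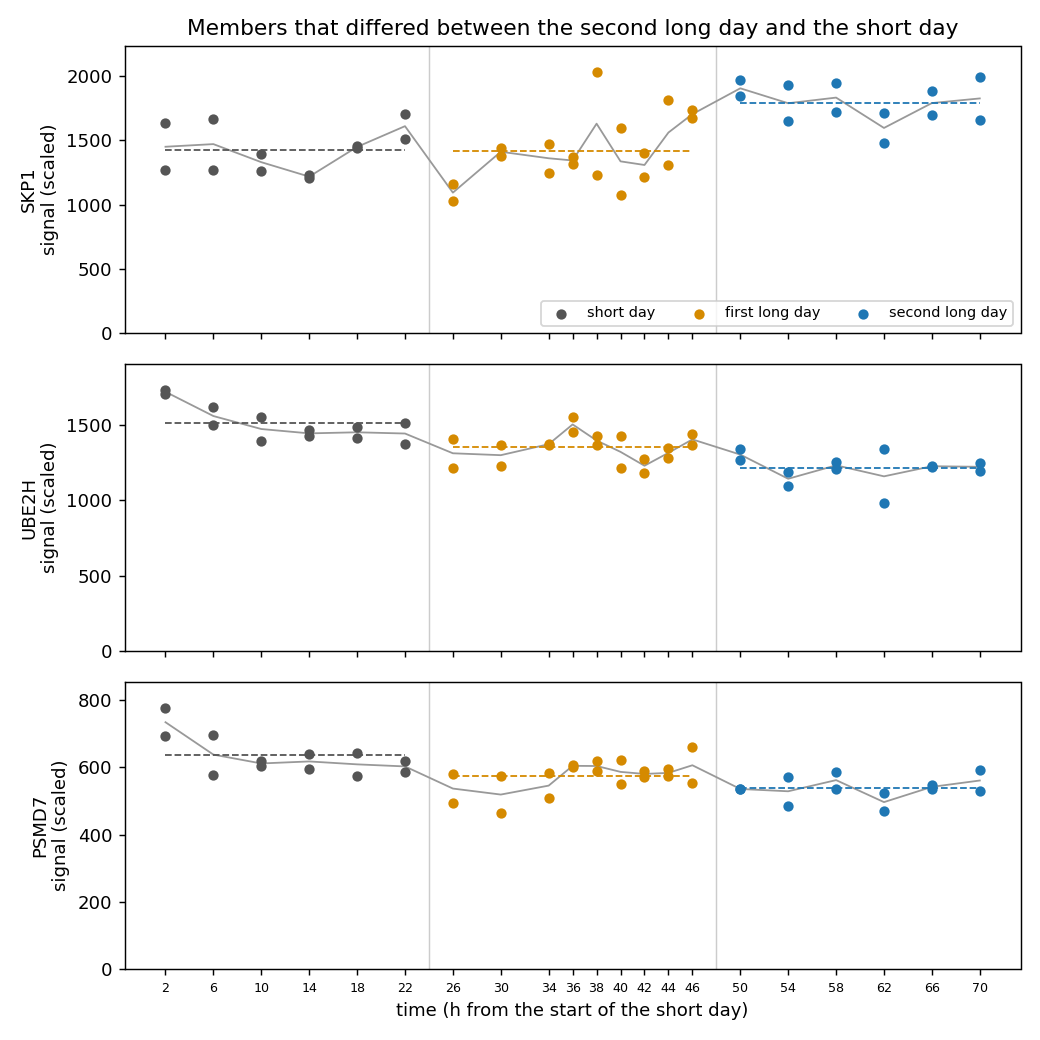
Scaled signal of SKP1, UBE2H and PSMD7 on each of the 42 arrays against time, with a line through the means of both arrays and dashed lines at the mean of each day. All second-long-day points of UBE2H lie below its short-day points, and those of PSMD7 and SKP1 overlap with the short day.

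UBE2H and PSMD7 also read lower at 26 and 30 h, before the light differed if times count from lights-on. The first long day minus the short day at those hours was -0.33 for UBE2H (95% interval -0.51 to -0.14, log2) and -0.38 for PSMD7 (-0.57 to -0.18). The unadjusted p-values were 0.000951 and 0.00049, but limma adjusted p was 0.60 and 0.542, so neither passed. SKP1 was at -0.22 (95% interval half-width 0.27, limma adjusted p = 0.958), the opposite sign to its rise on the second long day. No gene of the set passed in this comparison, against 0.00312% of all probe sets, and at an unadjusted p under 0.05 there were 4 of 56 against 5.32%. With the second long day compared over hours 10 to 22 alone, an alternative chosen after the data were seen, the difference of UBE2H was -0.27 (adjusted p = 0.04), that of PSMD7 -0.18 (0.323) and that of SKP1 0.33 (0.0984).

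The other genes gave no call. Over all 56 genes, 25 differences between the second long day and the short day were positive and 31 negative, with a median of -0.02 on the log2 scale against 0.04 for all probe sets tested. At all 6 hours of the second long day, 4 genes were higher and 5 lower than on the short day, called and uncalled genes among them. The tested mean averages these same hours, so their signs are not separate support for a call. For 40 of the 56, the called genes included, the whole 95% interval lay within 0.5 of 0 on the log2 scale, and for 55 within 1. The bound of 0.5 is wider than the called differences, so an interval inside it can still hold a change of their size. At an unadjusted p under 0.05 there were 10 of 56 genes, against 11.9% of all probe sets. Among the 11 genes with a mean signal of at least 500, 9 differences were negative with a median of -0.09, beside 65.5% negative and a median of -0.05 in the 833 probe sets of that brightness.

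**Figure D3:**
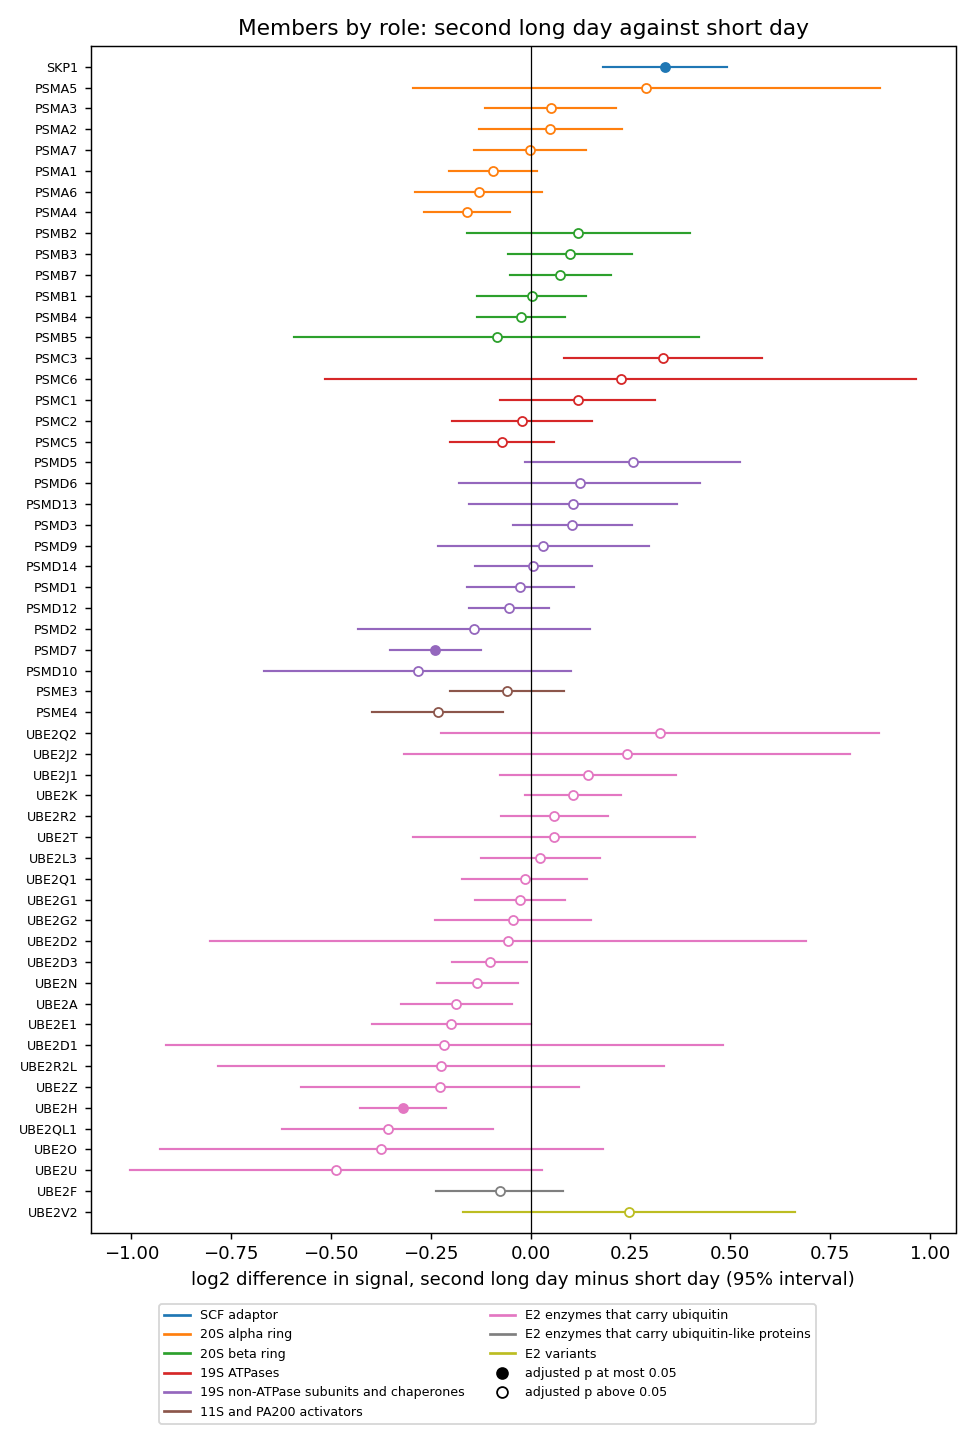
Log2 difference in signal between the second long day and the short day with its 95% interval for the 56 tested genes, grouped and coloured by role and ordered by size within a role. Filled points mark the 3 genes with an adjusted p at most 0.05, and 40 intervals lie within 0.5 of 0.

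In the 20S core, 0 of 7 alpha-ring and 0 of 6 beta-ring genes passed. PSMA4, the brightest alpha-ring probe set, read between 1390 and 1871 on the short day and between 1230 and 1599 on the second long day, with medians of 1637 and 1474. The groups overlapped, and the difference of -0.16 (95% interval -0.27 to -0.05, log2) had a limma adjusted p of 0.154. PSMA5, with short-day signals of 4.50 to 37.6, differed by 0.29 with an interval of -0.29 to 0.87. PSMB4 read between 641 and 808 on the short day and between 599 and 747 on the second long day, and its difference was -0.02 (-0.13 to 0.09). PSMB1, another beta-ring subunit without a cutting site, differed by 0.00 (-0.13 to 0.14). All 6 beta-ring differences lay between -0.08 and 0.12, and 5 of their intervals were within 0.5 of 0.

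In the 19S cap, 0 of 5 ATPase genes and 1 of 11 other subunits and chaperones passed, the latter being PSMD7, against 1.37% of all probe sets. PSMC5, the brightest ATPase probe set, was between 345 and 551 on the short day and between 376 and 509 on the second long day, a difference of -0.07 (-0.20 to 0.06). PSMC3 had the largest positive difference of the cap, 0.33 (0.08 to 0.58, limma adjusted p = 0.217), with signals of 35.8 to 60.6 on the short day and 50.5 to 64.4 on the second long day. It was above the short day at 6 of 6 hours on both long days, but the groups overlapped, and a dimmer PSMC3 probe set gave -0.37 (-0.88 to 0.15). PSMD2, a scaffold subunit that receives ubiquitin shuttle factors, varied between 29.8 and 115 over the short and second long days, with a difference of -0.14 (-0.43 to 0.15).

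Of the alternative caps, PSME3 (the nuclear 11S activator) and PSME4 (the PA200 activator), neither passed by its brightest probe set. PSME3 differed by -0.06 (-0.20 to 0.08), while a dimmer PSME3 probe set gave 0.23 (0.04 to 0.41, limma adjusted p = 0.277). PSME4 read between 147 and 237 on the short day and between 123 and 179 on the second long day, a difference of -0.23 (-0.40 to -0.07, limma adjusted p = 0.179), with its highest mean at 2 h, 218, and its lowest at 62 h, 141. Its other probe sets also read lower, by -0.36 (adjusted p = 0.237) and by -0.48 (-0.73 to -0.22, adjusted p = 0.0433). The latter was the only one of 34 tested probe sets other than the brightest that passed in this comparison.

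Of the 22 E2 genes that carry ubiquitin, 1 passed, UBE2H, against 1.37% of all probe sets tested. Differences were negative for 15 of the 22. Of all probe sets tested 56.5% were positive, while 65.5% of those with a mean signal of at least 500 were negative. UBE2N, the brightest probe set of the whole set, was between 3020 and 3356 on the short day, with a median of 3163, and between 2325 and 3180 on the second long day, with a median of 2921. The groups overlapped between 3020 and 3180, the difference was -0.13 (-0.23 to -0.03) with an adjusted p of 0.234, and it was negative at 6 of 6 hours on both long days. Its lowest array was replicate 2 of 62 h, and without replicate 1 of that time, which read 3066, UBE2N was called as well. The dimmer UBE2N probe sets went both ways, from -0.22 to 0.26. The latter had an interval of 0.002 to 0.52 (limma adjusted p = 0.416) at a mean signal of 78.4.

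UBE2QL1 had the largest difference among the brighter E2 probe sets that did not pass. It read between 273 and 706 on the short day and between 294 and 453 on the second long day, so the days overlapped and the short day was the more variable. The difference was -0.36 (-0.62 to -0.09, limma adjusted p = 0.209). UBE2A and UBE2D3, named after their values were seen, had differences of -0.19 (-0.33 to -0.05) and -0.10 (-0.20 to -0.01). For UBE2D3, an E2 that serves many ligases, a second bright probe set gave 0.15 (0.05 to 0.26), the opposite sign. A dimmer UBE2A probe set gave 0.13 (-0.02 to 0.28), also the opposite sign. The most negative value, -0.49 for UBE2U, and those of UBE2O (-0.37, an enzyme with both E2 and E3 activity) and UBE2Q2 (0.32) came from probe sets with mean signals of 4.26, 14.1 and 14.2 and at least 1 array at the floor, and their intervals included 0.

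The remaining E2-like genes also gave no call. UBE2F, which carries the ubiquitin-like protein NEDD8 to cullins, differed by -0.08 (-0.24 to 0.08). UBE2V2, an inactive E2 variant that partners UBE2N, differed by 0.25 (-0.17 to 0.66) with a mean signal of 20.8. Its interval is too wide to say how it compares with UBE2N.

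**Figure D4:**
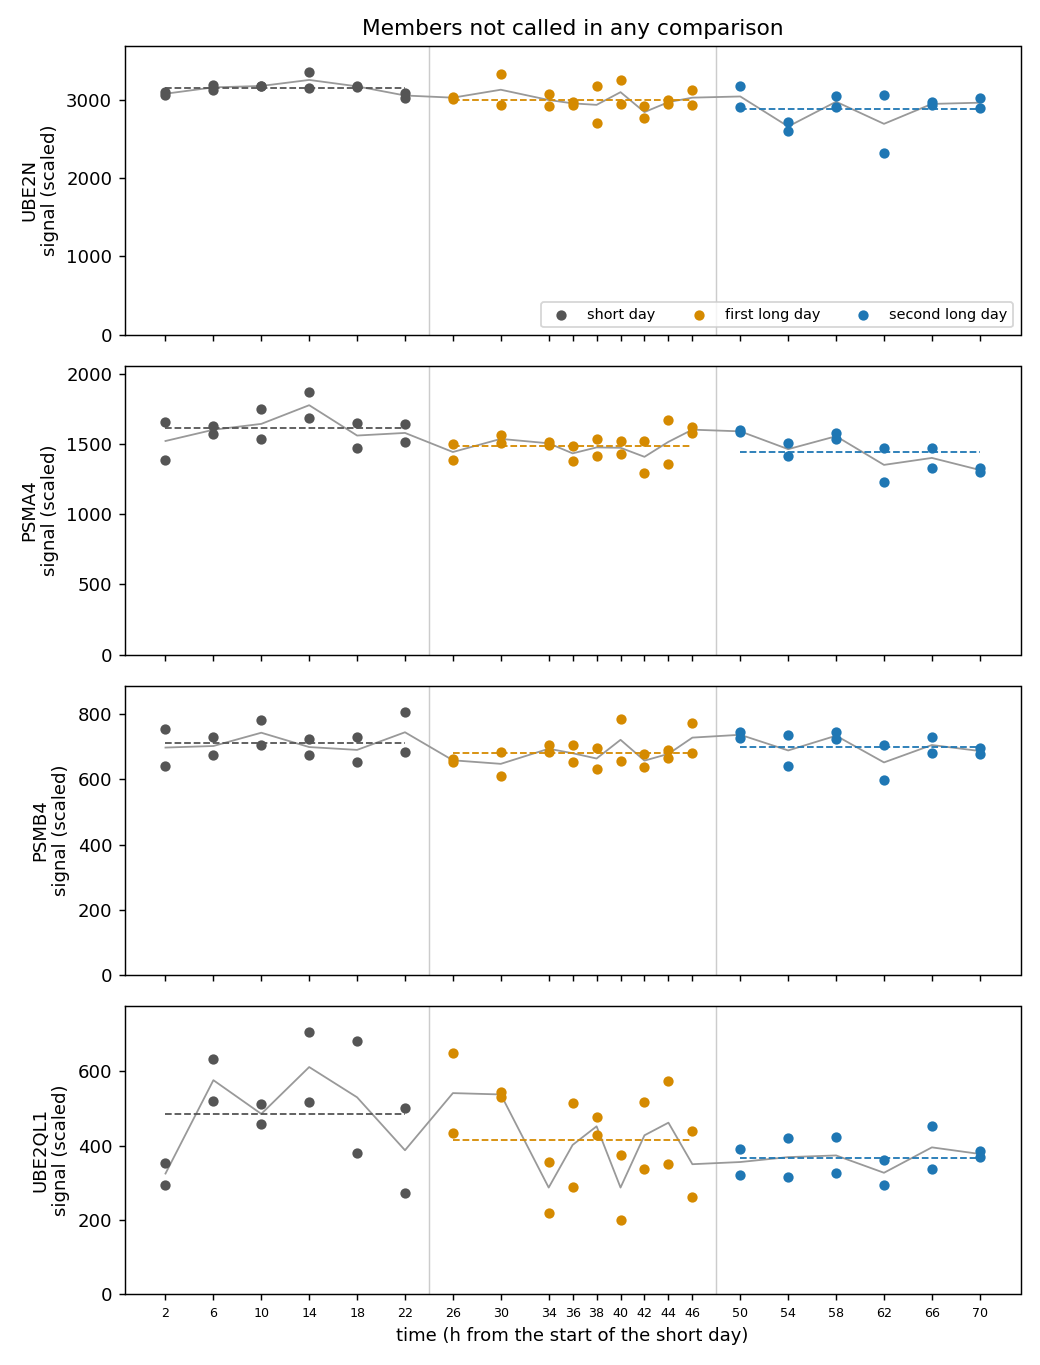
Scaled signal of UBE2N, PSMA4, PSMB4 and UBE2QL1, none of them called in any comparison, on each of the 42 arrays against time, with the mean of each day dashed. UBE2N and PSMA4 have lower means on the second long day within overlapping ranges, PSMB4 stays between 599 and 808, and both arrays of UBE2QL1 often differ widely.

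Probe sets of the same gene often differed in sign. Most of the dimmer ones had intervals that included 0, so a difference in sign alone does not show that probe sets disagreed. Of 23 genes with more than 1 tested probe set, all probe sets had the same sign in 7 for the second long day minus the short day. The 2 genes that fell each had a dim second probe set that did not pass, with 0.16 (-0.48 to 0.80) for UBE2H at a mean signal of 8.954 and 0.11 (-0.48 to 0.70) for PSMD7 at 8.744. SKP1 had a single probe set. The probe set names of SKP1, UBE2H and PSMD7 end in _s_at, the manufacturer's mark for probes that can match more than 1 transcript, so each value may include a related transcript. This is not particular to the called genes, since 22 of the 57 genes had names ending in _s_at or the similar _x_at.

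The first long day was also compared with the short day over hours 10, 14, 18 and 22. Of these only hour 22 was dark in both regimes, if times count from lights-on. Here 0 of 56 genes passed, against 0.0561% of all probe sets, and 3 had an unadjusted p under 0.05 against 5.63%. Differences were positive for 28 genes and negative for 28, and 39 intervals lay within 0.5 of 0 on the log2 scale. UBE2QL1 had a difference of -0.41 (-0.73 to -0.08, limma adjusted p = 0.807). The other extremes were PSMA5 (-0.48), UBE2D2 (-0.35), UBE2D1 (0.36), UBE2R2L (0.37) and UBE2O (0.43), all from dim probe sets whose intervals included 0. Those of SKP1, UBE2H and PSMD7 were 0.08 (-0.11 to 0.27), -0.11 (-0.24 to 0.02) and -0.07 (-0.21 to 0.07). No gene of the set passed at any of the 15 single times of the long days, at which 0 to 22 of all 32057 probe sets passed.

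Comparisons of the first long day with another day as means over several hours used the hours that both had. In these, its 6 arrays at 36, 40 and 44 h entered only the shared estimate of the spread, not the differences. Between the second and the first long day, 1 of 56 genes passed, SKP1, against 0.0905% of all probe sets, and 3 had an unadjusted p under 0.05 against 7.86%. SKP1 rose by 0.35 on the log2 scale (95% interval 0.20 to 0.51, 1.28-fold, limma adjusted p = 0.0483). This call stood just inside the threshold and was lost when any 1 of 27 arrays was left out, and kept without any 1 of the other 15 (adjusted p 0.0569 to 0.127 where lost). UBE2H was at -0.14 (-0.25 to -0.03, adjusted p = 0.451) and PSMD7 at -0.07 (-0.18 to 0.05). Comparisons with the short day share the short-day arrays, and this one shares the second-long-day arrays, so their values are not independent.

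Within days, no gene of the set passed the test for a daily profile. This held on the short day and on the first long day (0.0624% of all probe sets each), on the second long day (0.0499%), for the difference in profile between the second long day and the short day (0.00312%), and for hours 2 and 6 against hours 14 and 18 of the short day (0.0468%). At an unadjusted p under 0.05 the counts were 1, 1, 4, 2 and 2 of 56, against 4.31%, 4.21%, 9.31%, 5.78% and 4.43% of all probe sets. UBE2QL1 was the single gene on both the short day and the first long day. Without replicate 1 of 62 h, PSMC2, a cap ATPase that read 393 and 195 on both arrays of that time, passed on the second long day.

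The rest of the ubiquitin pathway gave similarly few calls, all in the comparison of the second long day with the short day. None of 6 tested ubiquitin and E1 genes, 25 other E3 ligases or 24 assembly, inhibitor and shuttle genes passed. Of 23 SCF and cullin ligase genes 1 passed, FBXW11, an F-box protein that docks on SKP1. In this comparison 1.37% of all probe sets passed, and 10.2% of those with a mean signal of at least 500. FBXW11 fell 1.27-fold (95% interval 1.12 to 1.44, adjusted p = 0.0459), from 583 ± 55.9 to 469 ± 108 (SD, n = 12 arrays each). Of 28 deubiquitinases 1 passed, USP10, which fell 1.25-fold (1.13 to 1.37, adjusted p = 0.00955), from 247 ± 42.9 to 197 ± 25.7. Neither call was recomputed under the alternative settings applied to the genes of the set, and that of FBXW11 stood just inside the threshold. A single call is the fewest that a list with any call can hold, so neither was read as a result about its list. The median differences of the SCF and cullin list and of the deubiquitinases were -0.08 and -0.06. Those of the ubiquitin and E1 genes, the other E3 ligases and the assembly, inhibitor and shuttle genes were 0.02, 0.007 and 0.0004. The median was 0.04 for all probe sets tested and -0.05 for those with a mean signal of at least 500.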

How the data were processed

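The authors deposited linear signal intensity for each probe set, computed with GCOS 1.2, per the submitters' processing notes. Detection calls, and also the scaling target, were not given in the sources used here. Each of 42 arrays was scaled to a 2% trimmed mean of 32.42 (factors 0.796 to 1.29), signals under 3.509 were raised to that floor, and log2 was taken. The 96 control probe sets were left out, and 32057 probe sets above their array's median on at least 2 arrays were tested. With limma 3.58.1 (R 4.3.3), 1 linear model with a mean for each time was fitted over the 42 arrays (trended empirical Bayes, 21 residual degrees of freedom). Tests were two-sided, with Benjamini-Hochberg adjustment over all 32057 and a threshold of 0.05. The number of arrays limits the precision, and n counts pools of birds.

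Gene symbols came from the platform annotation, and some may be old. Genes, role classes and pathway lists were chosen with earlier results of these data known. The text names SKP1, genes past the threshold, the brightest gene and the one with the smallest any-time p of each role, and the 3 highest and 3 lowest differences in each of 2 comparisons. Genes named outside this rule are said to be so or illustrate a range, a floor or a lost call. The labels number both arrays of each time point, and same-numbered arrays did not deviate together (210 pairs of time points, correlations -0.0354 to 0.0375), so the numbers were not used as pairs. A planned promoter motif search was not run and no sequences were used here. Scripts were tested on simulated data. Alternatives, computed for the genes of the set and not for the pathway lists, covered scaling, floor, filter, variance model, covariates, probe-set choice, the block and each array left out.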

Additional observations from a re-analysis of the deposited data

How the results depend on the processing

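Over 59 alternatives, the second long day minus the short day kept its direction for UBE2H (-0.58 to -0.08), PSMD7 (-0.50 to -0.06) and SKP1 (0.07 to 0.37). The call was kept in 58, 47 and 54 of them and lost in 1, 12 and 5. Of the 59, 42 only left out a single array, and these gave 0, 5 and 0 of the lost calls. Losses were thus more frequent among the other alternatives. The count of 3 genes called became 20 on the deposited scale, all lower, and 6 with median centring, all lower, both without SKP1. It became 1, UBE2H, without a variance trend, with the deposited trimmed mean as covariate, or over hours 10 to 22 alone, the last chosen after seeing the data. Leaving out single arrays gave 2 to 4. On the deposited scale the median of all probe sets was -0.185, and relative to it SKP1 stood at 0.26, UBE2H at -0.40 and PSMD7 at -0.32. The higher share of all calls was 29% as reported, 1.37% on the deposited scale and 4.68% with median centring, and all calls numbered 438, 3510 and 919. Averaging all probe sets of a gene called 2 genes, PSME4 and SKP1, lost UBE2H (-0.08, adjusted p = 0.893) and PSMD7 (-0.06), and turned PSMC3 to -0.017. Leaving out hour 14 of both days, also chosen after seeing the data, kept SKP1 and UBE2H. For the second minus the first long day, the count of 1 became 3 on the deposited scale (PSMC2, UBE2H and UBE2N, all lower). It became 0 with median centring, quantile scaling, a 10th percentile floor, no floor, no filter, no trend, array weights, only the arrays compared, the covariate and averaged probe sets, and 0 to 1 without single arrays. With the replicate number as a block, it was 0 (SKP1, adjusted p = 0.0512), and the block changed no other call. The any-time count of 0 became 1 on the deposited scale (UBE2H, adjusted p = 0.0377), and the second-long-day profile count 0 to 1 without single arrays. The causes were not tested. Dim probe sets had wide intervals, so small changes in them were not detectable.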
